A study of Mus musculus with 27 samples.

Results

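The genes described here are 10 checkpoint and exhaustion genes, Pdcd1, Ctla4, Lag3, Havcr2, Tigit, Btla, Tox, Entpd1, Icos and Tnfrsf9. They were taken by name from the 54752 genes of the count tables, and all 10 had a row in both. The samples were tumors of CT26, a mouse colon carcinoma line that had received, by retroviral transduction, a guide RNA against Mettl3, a guide RNA against Mettl14 or a control guide. Cells were placed under the skin of the flank of BALB/c mice. The protocol lists antibodies against CTLA-4, PD-1 or both and a control IgG, 200 µg or 10 mg/kg each, first on day 11 and last on day 23, and the series design places the tumors of all 3 groups under anti-PD-1 therapy. RNA-seq libraries numbered 5 per group, 15 in all, and the other 12 of the 27 samples, which are m6A immunoprecipitations and their inputs, were not analysed here. The samples titled Mettl14 carry Mettl4 in their genotype field, and the title was followed. The labels name neither the Cas9 source nor a clone, and they give no animal for any sample, so the p-values reflect only how these samples spread. The guides were given to the CT26 cells, whereas T cells in a transplanted tumor come from the host mouse.

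As background, Mettl3 and Mettl14 form the enzyme that writes N6-methyladenosine (m6A) on messenger RNA. Many checkpoint receptors, though not all, appear on T cells only after antigen contact. Pdcd1 (PD-1), Ctla4, Lag3, Havcr2 (TIM-3), Tigit and Btla dampen the signal of the T cell receptor or of costimulation, while Icos and Tnfrsf9 (4-1BB) strengthen it. Tox is a nuclear factor that drives the exhausted state of T cells under lasting antigen, and Entpd1 (CD39) is an ectonucleotidase that degrades extracellular ATP and is found on exhausted and regulatory T cells. Several of these genes are not limited to T cells, since macrophages and dendritic cells also carry Havcr2, and endothelial cells and macrophages carry Entpd1.

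Levels are in CPM, the reads of a gene relative to the total gene reads of its library after TMM scaling, which puts libraries of different depth on 1 scale. Gene reads per library ran from 5520340 to 20978633 in control, from 4354273 to 9332032 in Mettl3 knockout and from 6452364 to 17022057 in Mettl14 knockout. The share of reads outside genes was taken over these reads, gene reads and reads that fit more than 1 gene, without the remaining reads. It reached 78.6% in control replicate 1, whereas the other control libraries stayed at or under 53.8%. It was 60.2% to 78.0% in Mettl3 knockout and 53.6% to 65.9% in Mettl14 knockout. Mettl3 itself was at 19.4 ± 3.56 CPM (SD, n = 5) in control and 13.7 ± 1.44 in Mettl3 knockout, a log2 fold change of -0.56 (edgeR adjusted p = 0.054). Mettl14 was at 68.9 ± 11.6 CPM in control and 61.1 ± 12.3 in Mettl14 knockout, a log2 fold change of -0.21 (edgeR adjusted p = 0.735). In Mettl3 knockout the mean of Mettl14 was lower still, at 54.4 ± 16.0 CPM, and Mettl3 was at 17.0 ± 1.82 CPM in Mettl14 knockout. Over genes with a mean of 10 to 100 CPM, the median log2 fold change in Mettl3 knockout was -0.43. Neither targeted gene passed the test, and a guide can disrupt a gene without lowering its RNA, so the RNA level does not check the labels. Among markers of the tumor line, Krt20 was at 186 ± 23.5 CPM in control, while Epcam was at 1.44 ± 1.51 CPM.

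T cell markers differed widely between libraries. The summed level of 10 T cell markers ran from 15.9 to 60.4 CPM in control, from 66.7 to 205 CPM in Mettl3 knockout and from 38.1 to 320 CPM in Mettl14 knockout, and no marker was at 0 in any group. All 10 had a positive log2 fold change in both knockouts. Of all genes tested, 9631 of 21427 did in Mettl3 knockout and 8460 of 21555 in Mettl14 knockout. The summed level of 7 macrophage markers ran from 640 to 1111, from 548 to 1329 and from 865 to 2193 CPM in control, Mettl3 knockout and Mettl14 knockout. In tumor tissue, more cells of a type and more RNA per cell cannot be told apart.

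None of the 10 genes was too low to judge by the rule used, which asked for passing the low-count filter and a median of at least 10 reads in a compared group. Background from reads outside genes was gauged by 1965 olfactory and vomeronasal receptor genes, whose reads were taken as background. Whether any of them is expressed in these tumors was not tested. The rate of these receptor genes was 0.0366 to 0.965 CPM per kilobase of exon (without TMM) in control. It was 0.249 to 0.848 in Mettl3 knockout and 0.104 to 0.355 in Mettl14 knockout. Against this yardstick, which was added after the data were seen, 6 of 150 values lay under 2 times the rate of their library. Btla, the lowest gene per kilobase, gave 10 reads in control replicate 1 (95% Poisson interval 4.80 to 18.4, counting error only), fewer than the 18.1 that the olfactory rate gives for its length. Btla was also at 1.67 and 1.51 times the rate in Mettl3 knockout replicates 3 and 4. Tox was at 1.16 and 1.85 times the rate in control replicates 1 and 5, and Icos at 1.42 times in control replicate 1. In those libraries the levels of Btla, Tox and Icos could not be told well from background, and all 15 values of each of the other 7 genes lay above 2 times the rate.

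**Figure D1:**
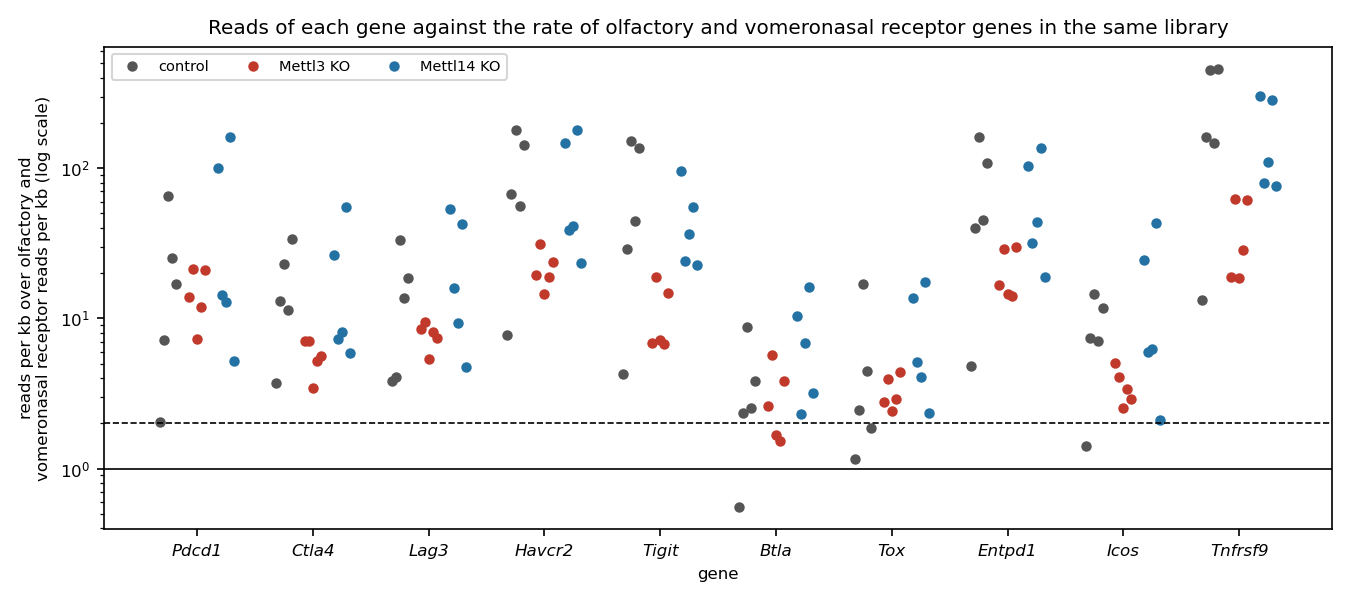
Reads per kilobase of each of the 10 genes divided by the reads per kilobase of olfactory and vomeronasal receptor genes in the same library (log axis), 1 point per library, colored by group. Btla, Tox and Icos hold the points nearest to 1, whereas Tnfrsf9 lies above 10 in every library.

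Per kilobase of exon, Tnfrsf9 was the most abundant of the 10 in every group, at a mean of 18.7 CPM per kilobase in control, 15.3 in Mettl3 knockout and 28.2 in Mettl14 knockout. In control it was followed by Havcr2 (7.52), Entpd1 (5.49), Tigit (5.22), Pdcd1 (1.90), Ctla4 (1.81), Lag3 (1.57), Icos (0.864), Tox (0.540) and Btla (0.335). Ranges of neighbours in this control order overlapped except between Tnfrsf9 and Havcr2 and between Tigit and Pdcd1. In both knockouts Pdcd1 stood above Tigit, at 6.79 against 4.54 CPM per kilobase in Mettl3 knockout and 9.17 against 7.68 in Mettl14 knockout, and Lag3 stood above Ctla4. Every pair of neighbours in the 2 knockout orders overlapped.

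A promoter window was found for 7 of the genes in the RefSeq table for GRCm38.p6, the build of the count files in its patched form. Sequence upstream of the start is shown for Pdcd1 and Btla, whose levels differed most between groups, and for Tigit, whose levels differed little from control. Capitals mark the letters GGAAA or their reverse complement TTTCC, the core bound by NFAT, a factor that T cell receptor signals bring to the nucleus. For Btla, bases inside the annotated gene are left out.
Pdcd1, chr1:94052554-94052803, minus strand: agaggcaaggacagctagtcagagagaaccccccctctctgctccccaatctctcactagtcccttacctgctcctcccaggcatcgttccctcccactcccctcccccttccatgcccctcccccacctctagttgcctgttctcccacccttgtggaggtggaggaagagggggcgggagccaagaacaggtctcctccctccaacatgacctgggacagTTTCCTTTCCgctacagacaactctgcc
Btla, chr16:45224087-45224314, plus strand: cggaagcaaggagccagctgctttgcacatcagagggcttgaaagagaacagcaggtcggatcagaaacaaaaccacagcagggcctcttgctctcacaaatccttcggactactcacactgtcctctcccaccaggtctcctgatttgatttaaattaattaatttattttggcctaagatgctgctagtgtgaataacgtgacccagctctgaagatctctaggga
Tigit, chr16:43664185-43664434, minus strand: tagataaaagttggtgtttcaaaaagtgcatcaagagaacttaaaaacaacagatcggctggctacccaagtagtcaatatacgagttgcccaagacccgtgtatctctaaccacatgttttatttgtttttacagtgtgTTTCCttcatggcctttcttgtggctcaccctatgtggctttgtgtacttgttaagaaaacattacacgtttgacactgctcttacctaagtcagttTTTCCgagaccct
The 250 bases before the RefSeq start held 2 such matches for Pdcd1, 2 for Tigit and 0 for Btla, for which the 22 bases not printed were searched too. Among 32851 RefSeq windows of the same length, 55.6% held at least 1. The letters TTCNNNGAA, a palindrome bound by STAT factors (7.02% of windows), and TGANTCA, bound by AP-1 (6.75% of windows), were in none of the 3. The searches covered both strands and can overlap each other, and a match is a description of letters, not of binding.

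The first comparison was each knockout with control, fitted over all genes with the edgeR quasi-likelihood test and adjusted by the Benjamini-Hochberg method (a call is an adjusted p under 0.05). In Mettl3 knockout tumors 8 of the 10 genes had higher fitted levels, with the largest differences for Btla, Pdcd1 and Tox, but 0 of 10 passed the test. Higher fitted levels were also found for 9631 of 21427 genes tested, and for 8400 of the 11396 with a mean of 1 to 10 CPM. Over all genes tested, 266 of 21427 (1.24%) were called. At an unadjusted p under 0.05 stood 6 of the 10 genes, and 32.3% of all genes. In Mettl14 knockout tumors all 10 fitted differences were positive, and again 0 of 10 were called, where 0 of 21555 genes (0.0%) were. Positive differences were found for 8460 of the 21555 genes, and for 4879 of the 10577 with a mean of 1 to 10 CPM. There 7 of the 10 genes had an unadjusted p under 0.05, against 11.3% of all genes. Both comparisons use the same 5 control libraries.

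**Figure D2:**
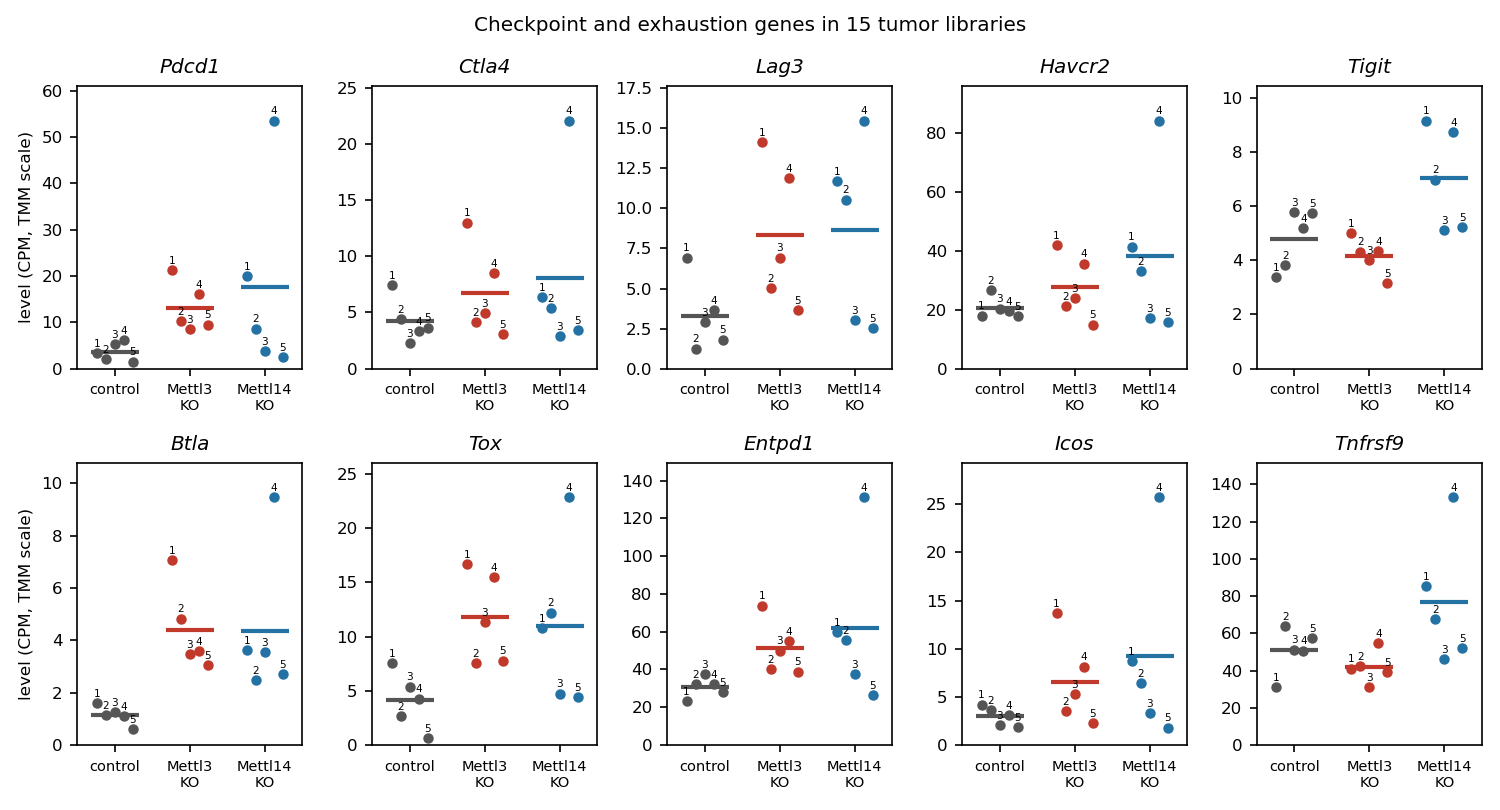
Level of each gene in CPM (linear axis from 0, a separate scale per gene) in the 5 libraries of each group, with a line at the mean. Mettl14 knockout replicate 4 is the highest of the 15 libraries for every gene except Tigit, and Pdcd1, Btla and Entpd1 are higher in every Mettl3 knockout library than in any control library.

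Pdcd1 (ENSMUSG00000026285, mm10 chr1:94038305-94052553, minus strand) encodes PD-1, the receptor that the therapy antibody binds. It measured 3.38, 2.02, 5.22, 6.19 and 1.50 CPM in control replicates 1 to 5. It measured 21.2, 10.3, 8.57, 16.1 and 9.48 CPM in Mettl3 knockout and 20.0, 8.63, 3.82, 53.6 and 2.52 CPM in Mettl14 knockout. All 5 Mettl3 knockout libraries lay above all control libraries, whereas 2 of the Mettl14 knockout libraries lay within the control range. The fitted difference was 3.46-fold in Mettl3 knockout (95% interval 1.83 to 6.57; log2 1.79, SE 0.42, edgeR adjusted p = 0.0524) and 4.59-fold in Mettl14 knockout (1.50 to 14.0; log2 2.20, SE 0.74, edgeR adjusted p = 0.296). Without Mettl14 knockout replicate 4, the Mettl14 log2 difference was 1.23.

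Btla (ENSMUSG00000052013, chr16:45224315-45257670, plus strand), an inhibitory receptor that binds the TNF receptor family member HVEM, was the least abundant gene per kilobase. Its control values were 1.61, 1.15, 1.24, 1.09 and 0.599 CPM, on 10 to 20 reads per library. In Mettl3 knockout it measured 7.07, 4.83, 3.46, 3.59 and 3.04 CPM, and in Mettl14 knockout 3.62, 2.47, 3.55, 9.46 and 2.72 CPM. It was the one gene of the 10 for which neither knockout group overlapped control. The difference was 3.73-fold in Mettl3 knockout (95% interval 1.94 to 7.18; log2 1.90, SE 0.43, edgeR adjusted p = 0.0524) and 3.71-fold in Mettl14 knockout (1.88 to 7.32; log2 1.89, SE 0.45, edgeR adjusted p = 0.189). Of these reads, an amount that the olfactory rate of each library would give was not removed in that fit.

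Lag3 (ENSMUSG00000030124, chr6:124904361-124911705), a receptor for MHC class II that restrains T cells, ranged from 1.25 to 6.92 CPM in control, from 3.65 to 14.1 CPM in Mettl3 knockout and from 2.52 to 15.5 CPM in Mettl14 knockout. The groups overlapped, and the log2 differences were 1.30 (SE 0.53, edgeR adjusted p = 0.120) and 1.33 (SE 0.58, adjusted p = 0.414). Ctla4 (ENSMUSG00000026011, chr1:60887000-60915832), which competes with Cd28 for the B7 ligands, ranged from 2.24 to 7.41, from 3.04 to 13.0 and from 2.90 to 22.1 CPM. Its log2 differences were 0.64 (SE 0.46, adjusted p = 0.312) and 0.87 (SE 0.54, adjusted p = 0.612), and the latter was 0.10 without Mettl14 knockout replicate 4. Havcr2 (ENSMUSG00000020399, chr11:46454935-46481255), which encodes TIM-3, ranged from 17.9 to 26.6, from 14.9 to 41.9 and from 15.8 to 84.3 CPM. Its log2 differences were 0.39 (SE 0.27, adjusted p = 0.293) and 0.85 (SE 0.38, adjusted p = 0.425), the latter 0.38 without Mettl14 knockout replicate 4. Control and knockout libraries overlapped for these 3 receptors.

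Tigit (ENSMUSG00000071552, chr16:43648867-43664146, minus strand), an inhibitory receptor of T and NK cells for the ligand Pvr, was with Tnfrsf9 one of the 2 genes fitted lower in Mettl3 and higher in Mettl14 knockout. It measured 3.38, 3.84, 5.80, 5.20 and 5.74 CPM in control, 5.01, 4.32, 4.01, 4.35 and 3.16 CPM in Mettl3 knockout and 9.17, 6.99, 5.13, 8.76 and 5.24 CPM in Mettl14 knockout. Every Mettl3 knockout library lay below every Mettl14 knockout library, and control overlapped both. Against control the log2 difference was -0.27 (SE 0.29, edgeR adjusted p = 0.476) in Mettl3 knockout, where counts less the olfactory rate gave 0.060, and 0.51 (SE 0.24, adjusted p = 0.452) in Mettl14 knockout.

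Tox (ENSMUSG00000041272, chr4:6686353-6991557), the exhaustion factor, measured 7.57, 2.69, 5.38, 4.27 and 0.649 CPM in control. It measured 16.6, 7.54, 11.3, 15.5 and 7.78 CPM in Mettl3 knockout and 10.8, 12.2, 4.74, 22.8 and 4.43 CPM in Mettl14 knockout. The lowest Mettl3 knockout library reached just into the control range, and 2 Mettl14 knockout libraries lay within it. The log2 differences were 1.49 (SE 0.52, edgeR adjusted p = 0.0843) and 1.37 (SE 0.59, adjusted p = 0.414). An antisense gene, Gm11802, shares 260 exon bases with Tox and held 42 reads over the 15 libraries, and the strand setting of the counting is not given in the sources used here.

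Entpd1 (ENSMUSG00000048120, chr19:40612366-40741602), the ectonucleotidase CD39, measured 23.2, 32.4, 37.5, 32.1 and 27.9 CPM in control. In Mettl3 knockout it measured 73.9, 40.3, 49.9, 55.0 and 38.9 CPM, and in Mettl14 knockout 59.8, 55.6, 37.4, 131 and 26.4 CPM. All Mettl3 knockout libraries exceeded all control libraries, the closest pair being 38.9 and 37.5 CPM, while the Mettl14 knockout range enclosed part of the control range. The difference was 1.63-fold (log2 0.71, SE 0.22, edgeR adjusted p = 0.0636) in Mettl3 knockout and 1.95-fold (1.17 to 3.25; log2 0.96, SE 0.34, adjusted p = 0.310) in Mettl14 knockout. Without Mettl14 knockout replicate 4 the Mettl14 log2 difference was 0.54.

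Icos (ENSMUSG00000026009, chr1:60977927-61000320), a costimulatory receptor of the Cd28 family, ranged from 1.85 to 4.19 CPM in control, from 2.31 to 13.7 CPM in Mettl3 knockout and from 1.81 to 25.7 CPM in Mettl14 knockout. The groups overlapped, with log2 differences of 1.13 (SE 0.49, edgeR adjusted p = 0.135) and 1.58 (SE 0.59, adjusted p = 0.338), the latter 0.77 without Mettl14 knockout replicate 4. Tnfrsf9 (ENSMUSG00000028965, chr4:150914562-150946102), the costimulatory receptor 4-1BB, measured 31.1, 64.0, 51.2, 50.7 and 57.6 CPM in control, 41.0, 42.5, 31.0, 54.6 and 39.0 CPM in Mettl3 knockout and 85.5, 67.7, 45.9, 133 and 51.9 CPM in Mettl14 knockout. Its groups overlapped throughout. Its log2 difference from control was -0.33 (SE 0.20, edgeR adjusted p = 0.252) in Mettl3 knockout, or 0.047 with counts less the olfactory rate, and 0.55 (SE 0.26, adjusted p = 0.451) in Mettl14 knockout.

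**Figure D3:**
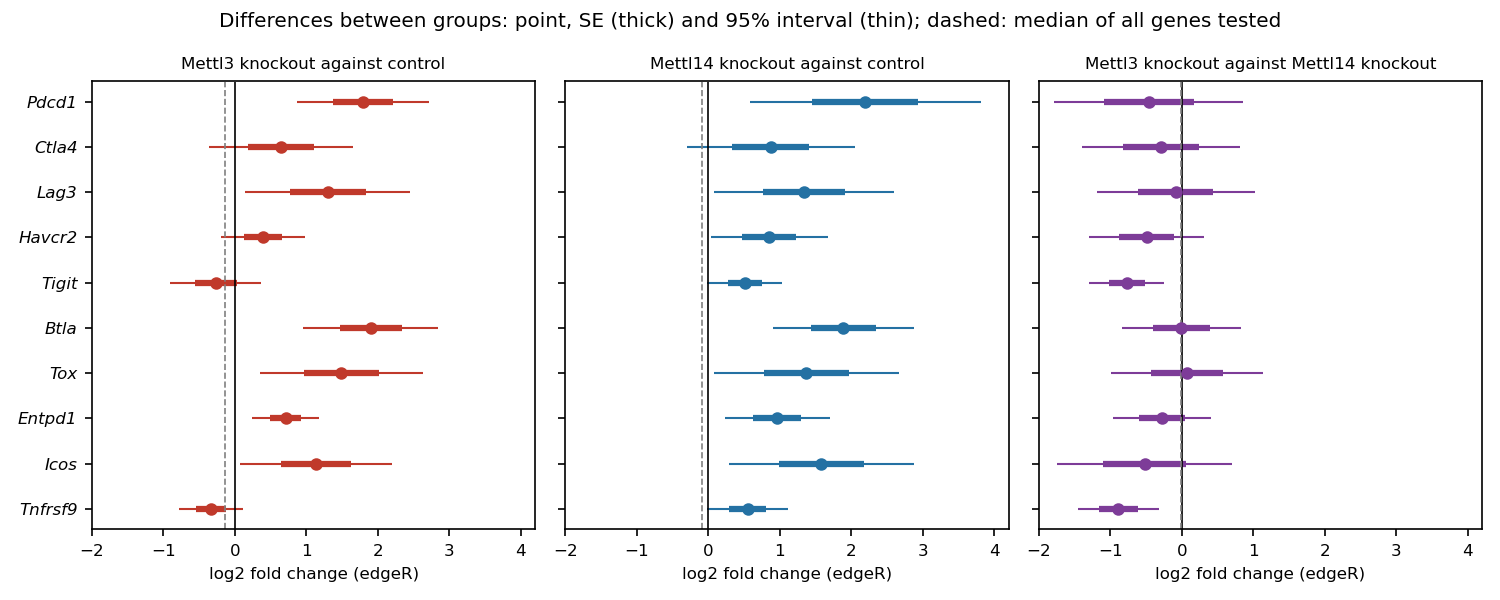
Fitted log2 fold change of each gene in the 3 comparisons, with its SE (thick line) and 95% interval (thin line); the dashed line is the median of all genes tested. In Mettl3 knockout against control the values run from -0.33 to 1.90 and in Mettl14 knockout against control from 0.51 to 2.20, whereas between the knockouts they run from -0.89 to 0.08.

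The median log2 difference of the 10 genes was 0.92 in Mettl3 knockout and 1.15 in Mettl14 knockout, beside -0.14 and -0.08 over all genes tested. The Mettl3 comparison depended on abundance. Its median was 0.67 over genes with a mean of 1 to 10 CPM, -0.43 over those of 10 to 100 CPM and -0.57 over those of at least 100 CPM, and 7 of the 10 genes have a control mean under 10 CPM. In the Mettl14 comparison those medians were -0.04, -0.11 and -0.15. Non-overlap with every knockout library higher was found for 3 of the 10 genes in Mettl3 knockout (Pdcd1, Btla and Entpd1) against 1.76% of genes, and for 1 of 10 in Mettl14 knockout (Btla) against 0.682% of genes.

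The count of 0 in Mettl3 knockout differed with the fit and with the libraries used. Without control replicate 1, the library with the highest share of reads outside genes, 7 of the 10 were called higher (Pdcd1, Ctla4, Lag3, Btla, Tox, Entpd1 and Icos), where 51.6% of all genes were called. With DESeq2, 3 were called (Pdcd1, Tox and Entpd1) beside 11.7% of genes, and with voom 4 (the same 3 and Btla) beside 23.5%. With counts less the olfactory rate, an alternative added after the data were seen, Pdcd1 (log2 2.31, edgeR adjusted p = 0.0314) and Entpd1 (log2 1.13, adjusted p = 0.0430) were called beside 3.31% of genes. In Mettl14 knockout, Btla was called without control replicate 1 (adjusted p = 0.0405; 4.86% of genes), and DESeq2 called Pdcd1 (2.35% of genes).

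In the authors' deposited table for Mettl3 knockout, Pdcd1 had a log2 fold change of 1.94 (adjusted p = 0.00115), Entpd1 1.41 (2.01e-06), Tox 1.93 (0.0075) and Tnfrsf9 -0.79 (0.0186). These 4 of the 10 had an adjusted p under 0.05 in the authors' deposited table, as did 11.6% of its 16160 genes with an adjusted p. Btla had 2.16 with an unadjusted p of 1.71e-06 and no adjusted p in that authors' deposited table, so it could not be counted there. In the authors' deposited table for Mettl14 knockout, Pdcd1 had 2.26 (0.0395), Btla 2.13 (0.0022) and Entpd1 1.17 (0.0321). Of the 16861 genes with an adjusted p in that authors' deposited table, 2.98% had one under 0.05.

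The second comparison was between the knockouts, in a fit of all 15 libraries. Again 0 of 10 genes were called by edgeR, as were 0 of 24566 (0.0%), and 2 of the 10 had an unadjusted p under 0.05, against 12.8% of all genes. Those were Tnfrsf9, 0.541 times as high in Mettl3 knockout as in Mettl14 knockout (95% interval 0.366 to 0.799; log2 -0.89, SE 0.27, adjusted p = 0.349), and Tigit, 0.587 times as high (0.408 to 0.844; log2 -0.77, SE 0.25, adjusted p = 0.349). Tigit was the one gene of the 10 with every Mettl3 knockout library below every Mettl14 knockout library, which held for 1.88% of all genes. The other 8 log2 differences ran from -0.52 (Icos) to 0.08 (Tox). For Btla the interval was 0.559 to 1.78 times and for Pdcd1 0.291 to 1.82 times, so differences of up to that size cannot be told from none at this spread. DESeq2 called 65 genes in this comparison and none of the 10.

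Some libraries were high for most of the 10 genes. Mettl14 knockout replicate 4 was the highest of all 15 libraries for 9 of the 10 genes, and Mettl3 knockout replicate 1 was the highest of its group for 9. The summed level of the T cell receptor complex genes Cd3d, Cd3e, Cd3g and Cd247 was 97.7 CPM in the first and 69.5 CPM in the second of these libraries, the highest of their groups. It was 21.7, 11.4, 18.0, 16.3 and 4.50 CPM in control, 27.7, 37.6, 41.0 and 22.0 CPM in the other Mettl3 knockout libraries and 36.6, 44.4, 15.3 and 11.8 CPM in the other Mettl14 knockout libraries. Control replicate 5, with the lowest sum, also had the lowest Pdcd1, Btla, Tox, Havcr2 and Icos of its group. Control replicate 1 went both ways: it had the highest Cd3 sum of its group and the highest level of 5 of the genes, but the lowest of 3 (Tigit, Entpd1 and Tnfrsf9) and the lowest sum over the 10 genes, 107 CPM.

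Set against that Cd3 sum in the same library, as a description with no test, the genes fell into different patterns. Pdcd1 stood at 15.6% to 38.0% of the Cd3 sum in control, 22.8% to 43.1% in Mettl3 knockout and 19.4% to 54.8% in Mettl14 knockout, and these ranges overlapped widely. Tox stood at 14.4% to 34.8%, 23.9% to 37.8% and 23.4% to 37.6%, and Btla at 6.73% to 13.3%, 8.76% to 17.5% and 5.56% to 23.3%. Tigit stood at 15.6% to 128%, 7.21% to 15.6% and 8.97% to 44.4%, and its Mettl3 knockout range overlapped the other 2. Tnfrsf9 ran from 143% to 1281% in control, from 59.0% to 177% in Mettl3 knockout and from 136% to 440% in Mettl14 knockout, and Havcr2 from 83.0% to 398%, from 60.3% to 87.1% and from 74.4% to 134%. The highest control values of Tigit, Tnfrsf9 and Havcr2 came from control replicate 5.

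**Figure D4:**
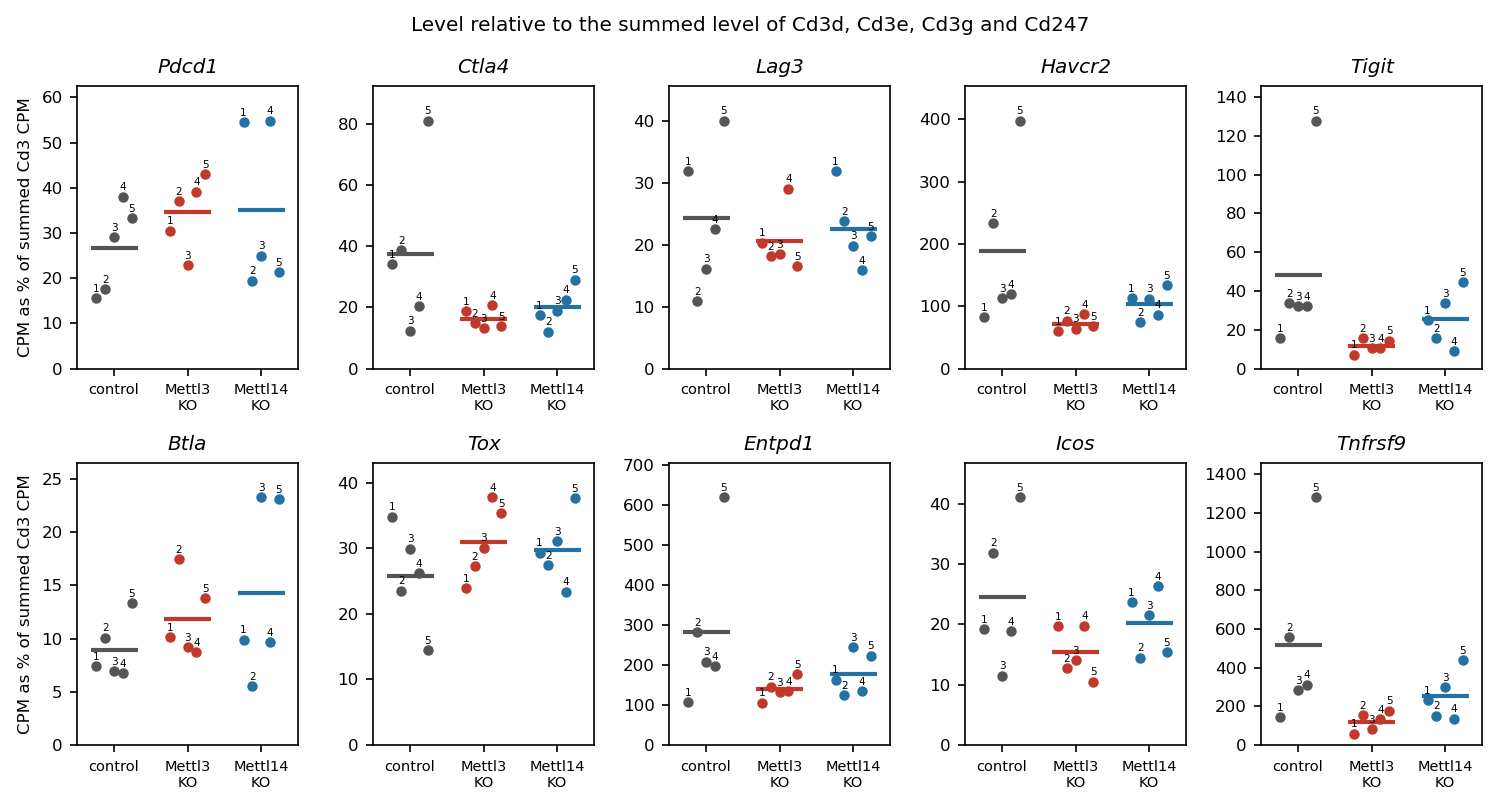
Level of each gene as a percent of the summed Cd3d, Cd3e, Cd3g and Cd247 level of the same library (linear axis from 0, a separate scale per gene), 5 libraries per group with a line at the mean. Pdcd1 and Tox overlap between all 3 groups. For Tigit, Tnfrsf9, Havcr2, Ctla4, Lag3, Entpd1 and Icos the highest point is control replicate 5, the library with the lowest Cd3 sum.

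With the log2 Cd3 sum as a covariate of the fit, 0 of the 10 genes were called by edgeR in either comparison. No gene at all was called in these fits, 0 of 21427 in the Mettl3 and 0 of 21555 in the Mettl14 comparison. The Mettl3 knockout log2 difference then was 0.57 for Pdcd1 and 1.00 for Btla, and it was -0.21 for Tox. The Mettl14 knockout difference was 0.05 for Pdcd1 and 1.20 for Btla. The Cd3 sum itself moved with the knockouts, so the covariate and the group share part of their variation and cannot be told apart fully.

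Other genes of the same pathways were read from lists. Over all genes tested, 1.24% passed in Mettl3 knockout and 0.0% in Mettl14 knockout, so few or no calls could come from any list. Median log2 differences of all genes with a mean of 1 to 10 CPM were 0.67 and -0.04, and of those of 10 to 100 CPM -0.43 and -0.11. Of 10 other inhibitory receptors, 0 passed the test in either knockout (median log2 difference 0.43 in Mettl3 and 0.62 in Mettl14 knockout). The largest in Mettl3 knockout was Klrc1, which encodes the NK and T cell receptor NKG2A, at 2.69 ± 1.12 CPM in control and 8.64 ± 3.24 (log2 1.63, edgeR adjusted p = 0.0524), followed by Cd5 (log2 1.36) and Cd244a (log2 0.72). Of 10 costimulatory receptors, 8 and 9 were tested and 0 passed in either knockout, with medians of 1.13 and 1.28. The adhesion and costimulatory receptors Cd2 (log2 2.15), Cd226 (1.91) and Cd27 (1.31) led in Mettl3 knockout. Cd226 competes with Tigit for the ligand Pvr.

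Of 12 checkpoint ligands, 1 rose and 0 fell in Mettl3 knockout and 0 passed in Mettl14 knockout, with medians of -0.06 and 0.16. The gene that rose was Cd274, which encodes the PD-1 ligand PD-L1. It was at 29.6 ± 7.96 CPM in control (23.4 to 43.4), 88.9 ± 36.2 in Mettl3 knockout (53.9 to 143) and 119 ± 73.1 in Mettl14 knockout (39.4 to 217). Every Mettl3 knockout library exceeded every control library (log2 1.55, SE 0.30, edgeR adjusted p = 0.0397), and the Mettl14 difference was 1.95 (SE 0.40, adjusted p = 0.130). It was also called in 2 of 10 fits that left out 1 library (without control replicate 1 or Mettl3 knockout replicate 2; log2 1.43 to 1.73 over all 10) and in 7 of 11 other alternatives, and it had log2 0.87 with the Cd3 covariate. The second PD-1 ligand, Pdcd1lg2, differed by log2 1.86 and 2.42 (adjusted p = 0.0598 and 0.258), and the Icos ligand Icosl by 1.13 and 0.87 (adjusted p = 0.0524 and 0.339). The Tigit ligand Pvr and the 4-1BB ligand Tnfsf9, named after their values were seen, had log2 differences of -0.60 and -0.63 in Mettl3 knockout (adjusted p = 0.106 and 0.142) and of 0.076 and 0.061 in Mettl14 knockout (adjusted p = 0.980 and 0.991).

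Of 13 transcription factors of exhaustion and memory, 0 passed in either knockout (medians 0.66 and 0.73), beside 1.24% and 0.0% of all genes tested. Irf4, induced by T cell receptor signals, differed by log2 1.70 and 1.68, and Tbx21, which encodes T-bet, by 1.48 and 1.60. Tox2, a relative of Tox, differed by 0.84 and 0.02. Tcf7, the factor of stem-like T cells, also named after its values were seen, was at 1.81 ± 0.99 CPM in control, 3.33 ± 1.28 in Mettl3 knockout and 3.96 ± 1.05 in Mettl14 knockout (adjusted p = 0.239 and 0.340). Among markers of other cells, Klrk1, which encodes the activating receptor NKG2D of NK and T cells, rose (log2 1.92, edgeR adjusted p = 0.0269) and Krt20, an intestinal keratin, fell (log2 -1.76, edgeR adjusted p = 0.0217) in Mettl3 knockout. They were called in 5 and 4 of 10 fits that left out 1 library. Krt20 did not stand for its list of 5 epithelial markers. Of these, 3 had a positive log2 difference in Mettl3 knockout (median 0.52) and 1 in Mettl14 knockout (median -0.54). Of 3 tested regulatory T cell markers, 0 passed in either knockout.

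The genes whose levels ran most like each of the 10 were ranked over the 15 libraries among 16917 genes by Spearman correlation, as a description over libraries that share groups and differ in T cell marker levels. Pdcd1 ran most like H2-DMb1 (rho 0.97) and Cd8a (0.96), Lag3 like Olfml3 (0.98) and Sh2d2a (0.97), and Tox like Fam49a (0.99) and Ifng (0.99). Entpd1 ran most like AW112010 and Prkch (both 0.99), Icos like Gem and Jchain (both 0.97) and Btla like Sla2 (0.93) and Tnfrsf18 (0.92). Havcr2 ran most like Cxcr6 (0.91) and Icos (0.89), and Ctla4 like Cdh1 (0.96) and Atp2b4 (0.94). Tigit ran most like Dhrs11 (0.91) and Mif (0.89), and Tnfrsf9 like Thbs1 (0.94) and the glycolytic enzyme gene Pgk1 (0.89).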

How the data were processed

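RNA-seq of 15 CT26 tumor samples was used, single reads of 75 nucleotides per the labels' protocols. The submitters' processing notes name HTSeq 0.11.2, HISAT2 2.1.0, cutadapt 1.18 and DESeq2, and the build mm10. For the annotation release and strandedness of the counting, nothing is given in the sources used here. Raw counts of reads for each Ensembl gene were deposited by the authors as 2 tables, with identical control columns that were used once. Summary lines, which hold 56.8% to 86.2% of the reads of a library, entered neither library sizes nor tests. The authors also deposited log2 fold changes with p-values and adjusted p-values, and per the file headers a mean of normalized counts (a signal) and a test statistic (a score), which were not used further.

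For each knockout, a quasi-likelihood test (edgeR 4.0.16, R 4.3.3) was run on its 5 libraries and the 5 control libraries, and the knockouts were set against each other in a fit of 15. The filter was filterByExpr (minimum count 10), the scaling TMM, the dispersion robust, and p-values were adjusted by Benjamini-Hochberg with a threshold of 0.05. Standard errors came from the F statistic, CPM are on a TMM scale over 15 libraries, and positions and exon lengths are from GENCODE M21 for mm10. Symbols matched 54723 of 54752 IDs. Alternatives were other scalings and filters, DESeq2 1.42.0, voom in limma 3.58.1, a replicate block, covariates, other sets of libraries and counts less an olfactory receptor rate. The fit was tested on simulated data. All 10 genes are named. From each list the text names the genes called in a knockout comparison and the 3 with the largest absolute log2 fold change in Mettl3 knockout, except for a result among the T cell markers that is not reported here. It also names the 2 genes most like each of the 10, leaving out gene models and pseudogenes and genes under a mean of 1 CPM. The 10 genes and the lists were chosen with earlier results of these data known. Intervals of counts cover counting error only.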

Additional observations from a re-analysis of the deposited data

Results flagged for a closer look

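Of 30 sets of 5 CPM values, 4 had 1 library far from the other 4, its gap to the next value exceeding 0.71 of the range. The sets come from the same libraries and are not independent, so this count cannot be set against chance. Mettl14 knockout replicate 4 was that library 3 times. It measured 22.1 CPM for Ctla4, against 6.37 in the next highest library of the group. For Btla it measured 9.46 CPM, against 3.62, and for Icos 25.7 CPM, against 8.71. In control, replicate 2 measured 26.6 CPM for Havcr2, against 20.4 in the next. The summed level of the 4 Cd3 genes was 97.7 CPM in Mettl14 knockout replicate 4 and 11.4 CPM in control replicate 2, and its part in these values was not tested.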

How the results depend on the processing

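In Mettl3 knockout against control, the count of the 10 genes called was 0 with all libraries, 3 with DESeq2, 4 with voom, 5 with the replicate block and 2 with background-subtracted counts, and 0 to 7 when 1 library was left out. Over all genes the count was 266, and 100 with RLE scaling, 121 with library totals, 62 with no filter, 78 with a mean of at least 1 CPM, 2504 with DESeq2, 5031 with voom, 6002 with the replicate block, 0 with the T cell level as covariate, 55 with the share of reads outside genes as covariate, 43 with all 15 libraries in 1 fit, 568 with background-subtracted counts and 15 to 11623 when 1 library was left out. The cause was not tested. The lowest of these came without Mettl3 knockout replicate 4 and the highest without control replicate 1. All leave-one-out counts lay more than 1.5 times from 266.

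In Mettl14 knockout against control, the count of the 10 genes called was 0, and 1 with DESeq2 and 0 to 1 when 1 library was left out. Over all genes it was 0, and 47 with no filter, 505 with DESeq2, 14 with the replicate block, 50 with all 15 libraries in 1 fit and 0 to 1053 when 1 library was left out. Between the knockouts it was 0 of the 10 genes throughout, and over all genes 0, 65 with DESeq2 and 0 to 1 when 1 library was left out.

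Fitted log2 differences changed sign in these cases. In Mettl3 knockout against control, the T cell covariate gave -0.31 for Ctla4, -0.10 for Lag3, -0.16 for Havcr2, -0.21 for Tox and -0.23 for Icos. The covariate of reads outside genes gave -0.12 for Ctla4, and background-subtracted counts gave 0.060 for Tigit and 0.047 for Tnfrsf9. In Mettl14 knockout, the T cell covariate gave -0.32 for Ctla4, -0.085 for Havcr2 and -0.062 for Icos. Between the knockouts, Pdcd1 was at 0.12 with voom and 0.17 with the replicate block, Ctla4 at 0.058 with background-subtracted counts, and Lag3 at 0.11 with a mean of at least 1 CPM, 3.84e-04 with the 10 knockout libraries alone and 0.32 with background-subtracted counts. Btla was at 0.0011 with RLE scaling, 0.16 with a mean of at least 1 CPM, 0.014 with voom, 0.091 with the replicate block and 0.064 with the 10 knockout libraries alone. Tox was at -0.15 with no filter and -0.37 with the covariate of reads outside genes, and Entpd1 at 0.15 with background-subtracted counts. When 1 library was left out, these differences ran from -0.77 to 0.69 for Pdcd1, -0.62 to 0.64 for Ctla4, -0.35 to 0.35 for Lag3, -0.73 to 0.12 for Havcr2, -0.20 to 0.57 for Btla, -0.16 to 0.63 for Tox, -0.46 to 0.29 for Entpd1 and -0.92 to 0.46 for Icos. Tigit ran from -0.91 to -0.56 and Tnfrsf9 from -1.07 to -0.51.

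Deviations from the group mean in same-numbered libraries had correlations of -0.36 to 0.61 between Mettl3 knockout and control. Between Mettl14 knockout and control they were -0.74 to 0.24. Differently numbered libraries of Mettl3 knockout and control ran as widely, from -0.79 to 0.77. The correlations therefore cannot decide whether the numbers pair the samples, and the main fits treated them as unpaired. With the replicate block, Pdcd1, Lag3, Btla, Tox and Entpd1 were called in Mettl3 knockout, beside 28.0% of genes. Background-subtracted counts were chosen after seeing the data. The fewest reads were those of Btla, 10 to 20 in each control library.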

Other observations

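Markers of other cells of the tumor, read from lists beside the 10 genes, gave these values. The summed level of 5 B cell markers ran from 3.48 to 30.6 CPM in control, from 11.9 to 69.5 CPM in Mettl3 knockout and from 11.7 to 56.6 CPM in Mettl14 knockout. The sum of 5 dendritic cell markers ran from 21.2 to 35.9, from 27.2 to 63.4 and from 20.6 to 56.6 CPM, and that of 5 endothelial markers from 144 to 274, from 130 to 230 and from 159 to 262 CPM. The 3 mast cell markers summed to 17.1 to 28.7, 24.8 to 50.1 and 20.1 to 113 CPM. None of the tested B cell, dendritic cell, endothelial or mast cell markers passed the edgeR test in either knockout. Over all genes tested, 1.24% passed in Mettl3 knockout and 0.0% in Mettl14 knockout. In Mettl3 knockout 2, 4, 1 and 2 of these markers had an unadjusted p under 0.05, as did 32.3% of all genes tested. In Mettl14 knockout the counts were 1, 2, 2 and 2, beside 11.3% of all genes tested.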
